A study of Mus musculus with 3 samples.

Results

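Ubiquitin ligases attach ubiquitin to target proteins, and a small set of them restrains T cells that meet antigen without costimulation. The 10 genes described here were taken by name as ubiquitin ligases of T cell tolerance and their adaptors, out of 50600 genes in the deposited tables. They are the RING ligase genes Cbl and Cblb, the HECT ligase genes Itch, Nedd4 and Nedd4l, the adaptor genes Ndfip1 and Ndfip2, the transmembrane RING ligase gene Rnf128 (GRAIL), the Pellino ligase gene Peli1 and the Deltex gene Dtx1. All 10 were found by their symbols. The choice used no measured value, but was made with earlier results of these data known.

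As background, a RING ligase holds the ubiquitin-charged conjugating enzyme next to the target, whereas a HECT ligase first takes the ubiquitin onto itself. CBL proteins bind phosphorylated tyrosines on receptor-proximal kinases and adaptors. Itch is folded into an inactive form until an NDFIP adaptor binds its WW domains through PPxY motifs. In mice, loss of Cblb, Itch, Ndfip1 or Rnf128 is known to give T cells that respond too readily, and several of these genes are induced in anergic T cells by calcium and NFAT signals.

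RNA was sequenced from primary T cells of C57BL/6NJ mice in 3 libraries of a single group, numbered 2, 3 and 4 as biological replicates. The labels name no treatment, sex, age or T cell subset, point to a protocol for CD4+ T cell differentiation and give all 3 libraries the same donor identifier, while the file headers carry the words Th0, activated and 00h. There was no second group, so the questions the data can address are how high each gene stood and how far the replicates differed. The p-values for variation among libraries compare the spread of a gene with that of genes of like abundance. The spread may be technical at least in part, and its sources were not tested. The p-values of contrasts between genes compare levels within each library. The labels name total RNA and link a library protocol for poly(A)+ RNA, so which RNA was sequenced cannot be settled from them. Totals were between 28340521 and 59698913 gene counts. Levels are in TPM, counts divided by the exon length of the gene and scaled to a fixed total.

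All 6 T cell markers reached 1 TPM in each of the 3 libraries, with summed levels between 7767 and 7917 TPM. Of the other markers checked, Cd8b1, Lyz2, Epcam and 5 of 6 B cell genes passed that level, with summed B cell markers at 44.7, 50.2 and 35.0 TPM in replicates 2, 3 and 4. Cd8b1 stood at 36.5, 33.9 and 30.5 TPM in these replicates, and the T cell marker Cd4 at 1018, 1067 and 1048 TPM. The CD8 marker Cd8a stayed below 1 TPM, at 0.334, 0.578 and 0.690 TPM. The 3 NK cell markers did not pass, and the epithelial marker Krt8 was at 0 counts. Replicate 2 stood apart by sex-linked genes, with Xist at 151 TPM against 0.221 and 0.399 TPM in replicates 3 and 4, so values are given by library.

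Of the 10 genes, 9 reached 1 TPM in each of the 3 libraries, a level that 46.1% of protein-coding genes and 23.4% of all genes reached. The median of all 10 genes, with Rnf128 below 1 TPM among them, was 71.3 TPM. That of the protein-coding genes that reached 1 TPM, a set without such low genes, was 33.4 TPM. The order was the same in each library, with Ndfip1 first, then Dtx1, Cbl, Peli1, Cblb, Itch, Nedd4l, Ndfip2, Nedd4 and Rnf128. Ndfip1, Dtx1 and Cbl exceeded 96.2%, 94.8% and 90.3% of the detected protein-coding genes in mean TPM, and Nedd4 exceeded 1.28%. Fewer cells expressing a gene and less RNA per cell cannot be told apart in bulk samples.

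**Figure D1:**
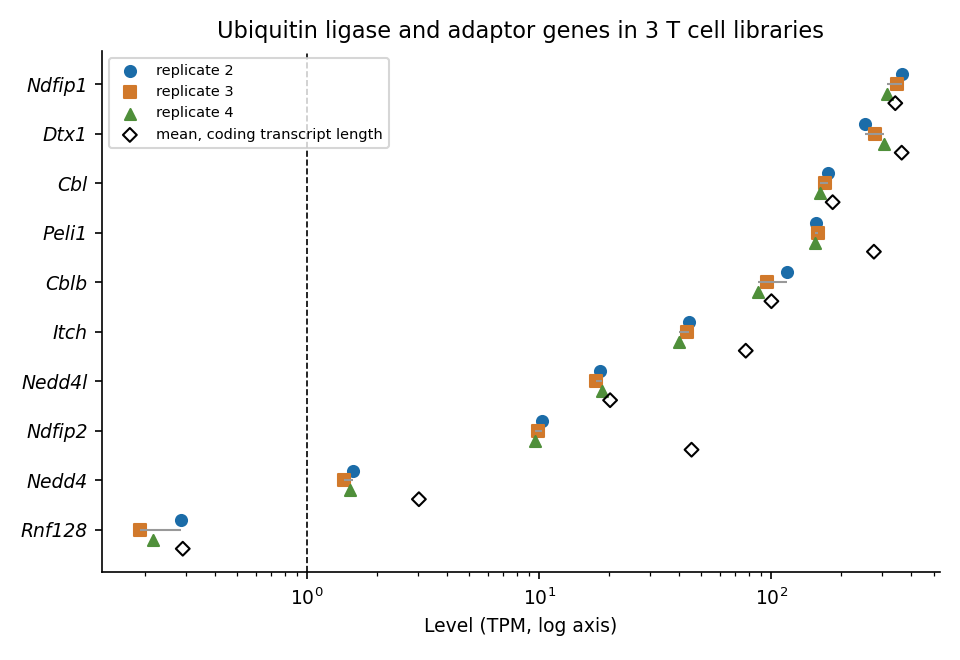
Level of each gene in TPM on a log axis, with a symbol for each of the 3 libraries. A grey line gives their range and a dashed line marks 1 TPM. Open diamonds give the mean when only the exon bases of the longest coding transcript count as length, with the scaling total unchanged. Only Rnf128 lies left of 1 TPM, and the diamonds of Ndfip2, Peli1, Itch and Nedd4 lie furthest to the right of their own symbols.

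Cbl and Cblb encode the CBL ligases of T cells. In the deposited table (mm10), Cbl (ENSMUSG00000034342) spans chr9:44142976-44234049 on the minus strand and Cblb (ENSMUSG00000022637) chr16:52031549-52208047 on the plus strand. Cbl, known for removing activated receptors and kinases, had 176, 170 and 162 TPM in replicates 2, 3 and 4, a mean of 169 ± 6.94 TPM (SD, n = 3). Cblb, which in mice makes T cell activation depend on CD28, had 117, 95.5 and 88.1 TPM, a mean of 100.1 ± 14.9 TPM. Replicate 2 was the highest for both genes and replicate 4 the lowest.

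Cblb was lower than Cbl in every library, at ratios of 0.6635, 0.5618 and 0.5435. The mean difference in log2(TPM + 0.1) was -0.77 ± 0.15 (SD, n = 3). The ratio of pooled counts corrected for length was 0.595, with a 95% exact interval from 0.586 to 0.603 that covers counting error only. The exact permutation test that flips signs, two-sided, gave p = 0.25, the smallest that 3 libraries allow, and an adjusted p of 0.25 over 14 contrasts by the Benjamini-Hochberg method. No contrast between genes could therefore pass 0.05, and the contrasts that follow all had the same p. Cblc, the third gene of the family, which is known from epithelia, had 0 counts in all 3 libraries.

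Promoter windows of the CBL pair are shown because EGR and NFAT factors, known inducers of Cblb in anergic cells, are described by short DNA motifs. The windows span 250 bases before to 50 after the RefSeq start (GRCm38.p6) and are written 5′ to 3′ on the gene's strand. Capitals mark matches on either strand to an NFAT core (GGAAA), AP-1 (TGANTCA), EGR (GCGNGGGCG) or RBPJ (TGGGAA), of which the NFAT core and RBPJ can overlap. Cbl is at chr9:44233997-44234296 on the minus strand and Cblb at chr16:52031299-52031598 on the plus strand.
Cbl: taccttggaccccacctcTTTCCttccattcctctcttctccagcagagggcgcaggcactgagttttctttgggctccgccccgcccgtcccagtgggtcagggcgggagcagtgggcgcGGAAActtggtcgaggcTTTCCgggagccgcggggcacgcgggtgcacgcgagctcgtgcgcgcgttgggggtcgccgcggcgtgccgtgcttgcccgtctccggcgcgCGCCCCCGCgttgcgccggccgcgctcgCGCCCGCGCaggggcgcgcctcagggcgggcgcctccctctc
Cblb: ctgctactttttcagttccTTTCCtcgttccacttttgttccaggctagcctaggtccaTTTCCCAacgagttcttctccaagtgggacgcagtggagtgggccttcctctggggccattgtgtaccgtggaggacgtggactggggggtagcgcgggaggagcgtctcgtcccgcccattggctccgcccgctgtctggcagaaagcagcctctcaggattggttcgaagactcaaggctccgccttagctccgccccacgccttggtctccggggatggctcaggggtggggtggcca
The Cbl window held 2 EGR and 3 NFAT core matches, and the Cblb window held 2 NFAT core matches and 1 RBPJ match. Of 32851 promoter windows of that length, 5.55% held the EGR motif, 61.3% the NFAT core, 25.6% the RBPJ motif and 7.81% the AP-1 motif. The Cbl window had 43 CpG dinucleotides and the Cblb window 17, beside a median of 7 over all windows. A match describes letters, not binding.

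Itch was the highest HECT ligase gene of the 3. Itch lies at chr2:155133509-155226855, Nedd4 at chr9:72662346-72749852 and Nedd4l at chr18:64887756-65217826, all on the plus strand of mm10. Itch, whose loss in mice gives inflammation with Th2 cytokines, had 44.3, 43.2 and 39.9 TPM in replicates 2, 3 and 4 (mean 42.4 ± 2.31 TPM). Nedd4l, best known for turnover of the epithelial sodium channel, had 18.2, 17.6 and 18.7 TPM (mean 18.2 ± 0.513 TPM). Nedd4, the founding gene of the family, which in mice is reported to promote T cell responses, had 1.58, 1.45 and 1.53 TPM (mean 1.52 ± 0.0674 TPM) from 626 counts over the 3 libraries.

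In log2(TPM + 0.1), Itch stood above Nedd4l by 1.22 ± 0.11 and above Nedd4 by 4.72 ± 0.10, and Nedd4l stood above Nedd4 by 3.50 ± 0.04 (SD, n = 3), each in 3 of 3 libraries. The ratio of pooled counts corrected for length was 28.4 for Itch over Nedd4, with an interval from 26.2 to 30.8, and 12.0 for Nedd4l over Nedd4, from 11.01 to 13.01. With length limited to the coding transcript, as described below, the ratio was 6.49 for Nedd4l over Nedd4, and that of Itch over Nedd4l was 3.83 in place of 2.37. Cblb stood above Itch by 1.23 ± 0.15, in 3 of 3 libraries, and by 0.36 with that length.

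Of the 9 NEDD4 family genes, 7 reached 1 TPM throughout. Smurf1 and Smurf2, which act on SMAD proteins and TGF-β receptors, were the highest, at 73.97 ± 6.96 and 73.6 ± 3.16 TPM. Wwp2 stood at 41.6, 36.5 and 40.3 TPM in replicates 2, 3 and 4, close to Itch, and Wwp1 at 17.5, 15.2 and 13.2 TPM. Hecw1 had 0 counts and Hecw2 was at or below 0.0469 TPM. Itch made up 16.0 ± 0.141% of the summed TPM of the family, against 27.9% for Smurf1 and 0.575% for Nedd4. With the coding transcript as length, described below, Itch, Wwp2, Smurf1 and Smurf2 lay closer together, while the shares of Nedd4l and Wwp1 fell. The shares were then 20.99% for Itch, 21.97% for Wwp2, 23.39% for Smurf1, 23.21% for Smurf2 and 0.821% for Nedd4. Nedd4l went from 6.89% to 5.47% and Wwp1 from 5.77% to 4.14%.

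The adaptor genes were far apart in level. Ndfip1 lies at chr18:38418975-38464399 and Ndfip2 at chr14:105258573-105309298, both on the plus strand of mm10. Ndfip1, which opens Itch for its substrates, had 364, 349 and 314 TPM in replicates 2, 3 and 4 (mean 342 ± 25.8 TPM), and Ndfip2, its paralog, had 10.2, 9.92 and 9.63 TPM (mean 9.93 ± 0.309 TPM). Replicate 2 was the highest and replicate 4 the lowest for both. Ndfip1 stood above Ndfip2 by 5.09 ± 0.07 on the log2 scale in 3 of 3 libraries, and above Itch by 3.01 ± 0.03.

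The size of the adaptor gap rests on gene length. The deposited table gives Ndfip1 8 exon intervals and 930 bases that end at base 38464399 of chromosome 18, whereas GENCODE M21 extends the gene to base 38465303 and its longest coding transcript to 1796 bases. For Ndfip2 the deposited length was 11553 bases, of which 21.9% lie in the longest coding transcript of 2532 bases, and the rest lies in exons of no coding transcript. By counts alone the Ndfip1 to Ndfip2 ratio was 2.80, by TPM 34.8 and by the deposited bases that lie in the longest coding transcript 7.52. Reads from the part of Ndfip1 outside the 930 bases were not counted. Ndfip1 had more than Ndfip2 on each of the 3 scales. Against Itch the sign changed, since Ndfip1 had 0.775 of the counts of Itch and a log2 difference of -0.37 in CPM, counts scaled to a fixed library total.

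Length mattered for other genes as well. The share of deposited exon bases that lie in the longest coding transcript was 50.1% for Nedd4, 54.7% for Itch and 56.5% for Peli1, against 92.1% for Cbl and all bases for Cblb and Ndfip1. With those shared bases as length, the means were 365 TPM for Dtx1, 342 TPM for Ndfip1, 277 TPM for Peli1, 184 TPM for Cbl, 77.6 TPM for Itch, 45.3 TPM for Ndfip2, 20.2 TPM for Nedd4l, 3.03 TPM for Nedd4 and 0.291 TPM for Rnf128. The scaling total was left as computed from the deposited lengths, so these values could only rise or stay the same. The counts themselves were not divided among transcripts.

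**Figure D2:**
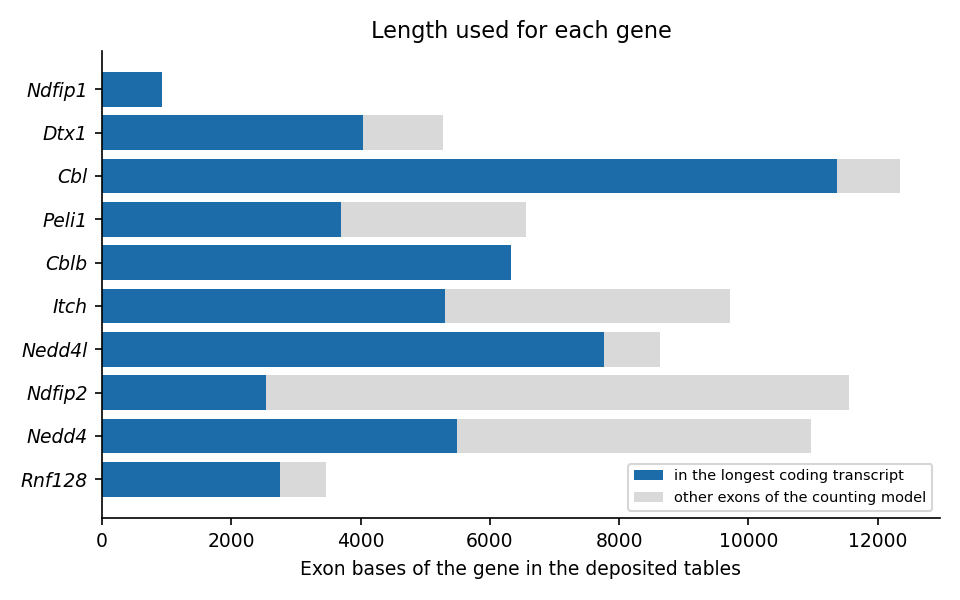
Exon bases of each gene in the deposited tables, with the part that lies in the longest coding transcript of GENCODE M21 in blue and other exons in grey. Ndfip2 has 11553 bases with a blue part of 2532, while the 930 bases of Ndfip1 are all blue.

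Of the 6 genes of PPxY adaptors, 5 reached 1 TPM throughout. The others in the list were α-arrestin genes, whose proteins also bring NEDD4 ligases to membrane targets. Arrdc1 stood at 200.1 ± 9.60 TPM (SD, n = 3), Arrdc2 at 34.8 ± 0.415 TPM and Arrdc3 at 10.4 ± 0.924 TPM. Arrdc4 was the lowest, at 0.6205, 1.101 and 1.37 TPM in replicates 2, 3 and 4. Ndfip1 made up 57.1% of the summed TPM of the list and Ndfip2 1.66%, against 45.4% and 6.02% with the coding transcript as length.

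Rnf128, at chrX:139563316-139673145 on the plus strand, was near the counting floor. It encodes GRAIL, a ligase of endosomal membranes that is induced in anergic CD4 T cells, and had 13, 11 and 6 counts in replicates 2, 3 and 4. Its levels were 0.285, 0.191 and 0.217 TPM, with 95% exact Poisson intervals from 0.152 to 0.487, from 0.0952 to 0.341 and from 0.0797 to 0.473 TPM, which cover counting error only. The 3 intervals overlap, which is not itself a test of a difference. The edgeR goodness of fit among libraries, described below, gave an unadjusted p of 0.808, and so few counts limit what it could detect. Nedd4, the next gene up, had 6.59 times its pooled level per length, with an interval from 4.57 to 9.85.

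The Rnf128 window is shown as that of the lowest gene, although its RefSeq start lies 47304 bases downstream of the start of the gene in the deposited table. It lies at chrX:139610370-139610669 on the plus strand, with capitals as above.
Rnf128: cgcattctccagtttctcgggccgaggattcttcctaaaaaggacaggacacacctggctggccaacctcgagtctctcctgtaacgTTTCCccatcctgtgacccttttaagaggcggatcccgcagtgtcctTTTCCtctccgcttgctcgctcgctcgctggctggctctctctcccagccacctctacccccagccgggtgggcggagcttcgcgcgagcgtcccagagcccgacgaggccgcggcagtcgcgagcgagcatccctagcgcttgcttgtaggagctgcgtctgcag
It held 2 NFAT core matches and 26 CpG dinucleotides.

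Most other genes of the PA-TM-RING family, membrane ligases built like GRAIL, were higher. Of 12, 7 reached 1 TPM throughout, 3 had 0 counts (Rnf133, Rnf148 and Znrf4), and Rnf150 had 1 count in all. Rnf167 was the highest at 389.5, 366 and 375 TPM in replicates 2, 3 and 4, and made up 69.75% of the summed TPM of the family, against 0.0426% for Rnf128. Znrf3 and Rnf43, which clear Wnt receptors, stood at 31.5 ± 1.02 and 7.22 ± 0.624 TPM.

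Peli1, at chr11:21091291-21150323 on the plus strand, varied little in level. It encodes a Pellino ligase that in mice restrains T cells by marking the NF-κB subunit c-Rel, and had 155, 159 and 155 TPM in replicates 2, 3 and 4 (mean 156 ± 2.44 TPM, SD, n = 3). Its coefficient of variation in TPM of 1.56% was the lowest of the 10 genes and compares with counting errors between 0.759% and 1.11%. Cbl stood above Peli1 by 0.11 ± 0.06 on the log2 scale in 3 of 3 libraries, but by -0.59 with the coding transcript as length, so their order depends on the length used. Peli3 was at 2.09, 1.095 and 0.828 TPM and Peli2 at or below 0.0779 TPM, and Peli1 made up 99.1% of the summed TPM of its family.

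Dtx1, at chr5:120680202-120711927 on the minus strand, was the second gene of the order. It encodes a Deltex ligase of the Notch pathway and in mice is an NFAT target that promotes anergy. Its levels were 253, 279 and 305 TPM in replicates 2, 3 and 4 (mean 279 ± 26.2 TPM, SD, n = 3), lowest in replicate 2 and highest in replicate 4. Ndfip1 ran the other way, so the ratio of Ndfip1 to Dtx1 was 1.44, 1.248 and 1.03. In replicate 4 the 95% exact Poisson intervals of the pair overlapped, since that of Ndfip1 began at 301 TPM and that of Dtx1 reached 311 TPM. Their mean difference of 0.30 ± 0.24 on the log2 scale was the least separated of the neighbours in the order relative to its SD, and was -0.09 with the coding transcript as length. Dtx1 is also known from B cells. The summed B cell markers were highest in replicate 3 and lowest in replicate 4, where Dtx1 was highest, and their part in the Dtx1 values was not tested.

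The promoter window of Dtx1 is shown as that of the ligase gene with the highest TPM among the 10 genes. It lies at chr5:120711620-120711919 on the minus strand, and its RefSeq start is 258 bases downstream of the gene start in the deposited table.
Dtx1: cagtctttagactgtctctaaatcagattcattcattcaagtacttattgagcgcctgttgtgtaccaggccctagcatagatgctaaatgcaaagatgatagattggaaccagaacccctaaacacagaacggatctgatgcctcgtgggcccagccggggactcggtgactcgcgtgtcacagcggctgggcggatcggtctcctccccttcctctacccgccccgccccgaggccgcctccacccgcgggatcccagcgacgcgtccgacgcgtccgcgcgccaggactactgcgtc
It held no match to the NFAT core, AP-1, EGR or RBPJ motifs, so it has no capitals, and it had 26 CpG dinucleotides. No match says only that these letters are not in this window.

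All 5 Deltex genes reached 1 TPM throughout. Dtx3l, which encodes the partner of PARP9, stood at 114, 116 and 114 TPM in replicates 2, 3 and 4, and Dtx3 at 104, 101 and 96.5 TPM. Dtx2 followed at 25.95 ± 0.656 TPM and Dtx4 at 7.77 ± 1.202 TPM. Dtx1 made up 52.8 ± 2.55% of their summed TPM.

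**Figure D3:**
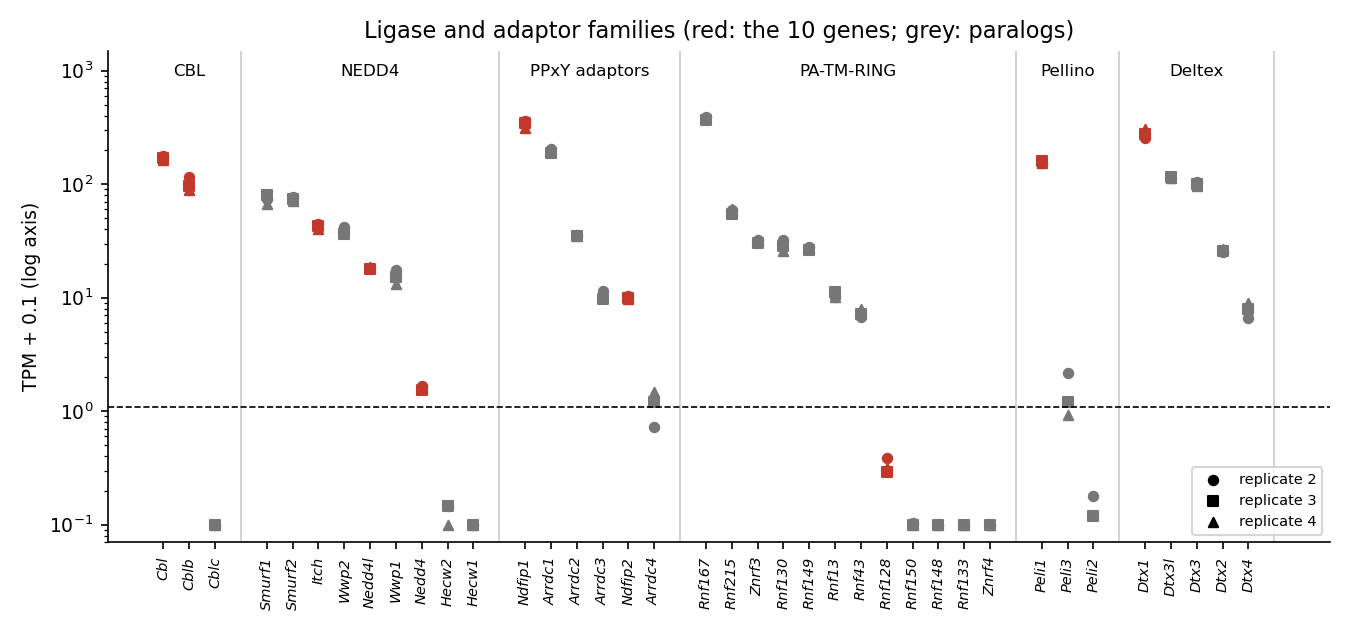
TPM + 0.1 on a log axis for every gene of the 6 families, sorted by mean level within each family, with the 10 genes in red, their paralogs in grey, a symbol for each library and a dashed line at 1 TPM. Cbl, Ndfip1, Peli1 and Dtx1 lead their families, while Smurf1 and Smurf2 lie above Itch, and Rnf128 lies below 7 of its paralogs.

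The replicates were next compared gene by gene. By edgeR's goodness of fit with Benjamini-Hochberg adjustment over 13498 genes, 0 of the 10 genes passed the test of variation among libraries, with an adjusted p of 1.0 for each, against 0.533% of all genes tested. At an unadjusted p of 0.05 it was also 0 of 10, against 4.1% of all genes. The spread that the test allows was estimated from the same 3 libraries. It therefore asks whether a gene varied more than genes of like abundance, not whether the replicates differed at all. The median range between the highest and lowest library, in TMM-scaled log2 CPM, was 0.11 for the 10 genes and 0.19 for all genes tested. The range depends on the count, with a median of 0.91 for genes of 10 to 30 counts and 0.10 for genes of 3000 to 10000, and most of the 10 genes had high counts. Among genes within 1.2-fold in mean count, the share with a smaller range was between 5.17% for Ndfip2 and 99.2% for Dtx1.

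Cblb and Dtx1 had the widest ranges of the genes above 1 TPM. Cblb ranged over 0.35 (1.28-fold) and Dtx1 over 0.32 (1.252-fold), and neither passed the edgeR test (unadjusted p of 0.0632 and 0.132). The 95% exact Poisson intervals of Cblb ran from 114 to 119, 93.6 to 97.4 and 85.5 to 90.7 TPM in replicates 2, 3 and 4. Those of Dtx1 ran from 249 to 257, 276 to 283 and 300 to 311 TPM. The intervals cover counting error only and did not overlap among libraries for either gene, nor for Cbl. Among genes within 1.2-fold in mean count, 97.85% of 557 had a smaller range than Cblb and 99.2% of 241 a smaller one than Dtx1. In replicate 2 Cblb stood at 0.21 and Dtx1 at -0.16 relative to the mean of the libraries, and in replicate 4 Cblb stood at -0.15 and Dtx1 at 0.16. Without replicate 2 the range of Cblb was 0.08 and that of Dtx1 0.16, and without replicate 4 that of Dtx1 was 0.17. Replicate 2 is also the library with the female pattern of sex-linked genes. Sex and other differences of that library cannot be told apart here, and their part in these ranges was not tested.

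The libraries lay closer together for the other genes above 1 TPM. Ndfip1 ranged over 0.16 and Itch over 0.10, both lowest in replicate 4. Nedd4l and Nedd4 ranged over 0.11, Cbl over 0.07, Peli1 over 0.06 and Ndfip2 over 0.04. Rnf128 ranged over 0.47, and 11.1% of 307 genes of like count had a smaller range.

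**Figure D4:**
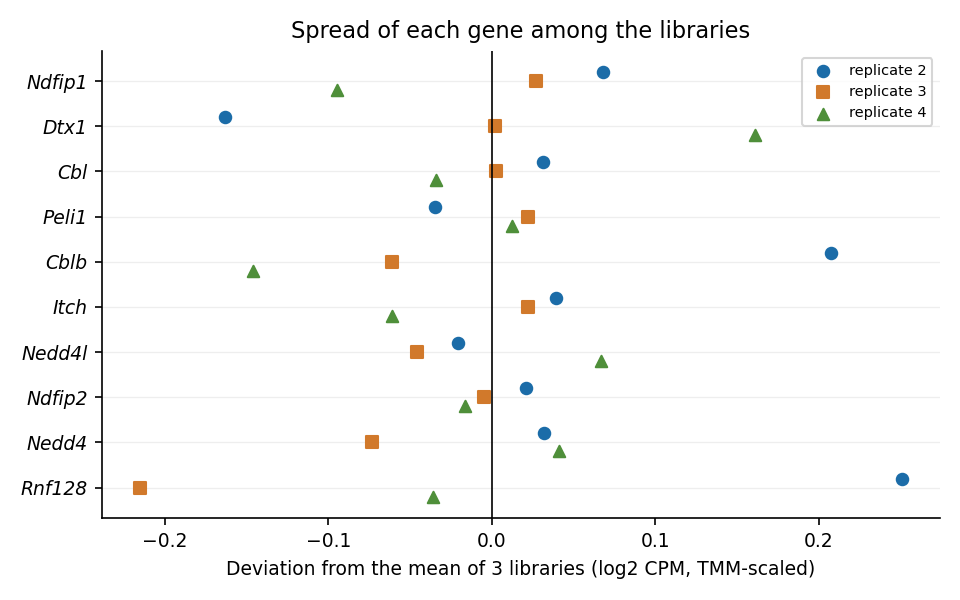
Deviation of each library from the mean of the 3 libraries, in log2 CPM scaled by TMM, for each gene in the order of its level. Replicate 2 lies to the right for Cblb (0.21) and to the left for Dtx1 (-0.16), and replicate 4 on the opposite side.

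**Figure D5:**
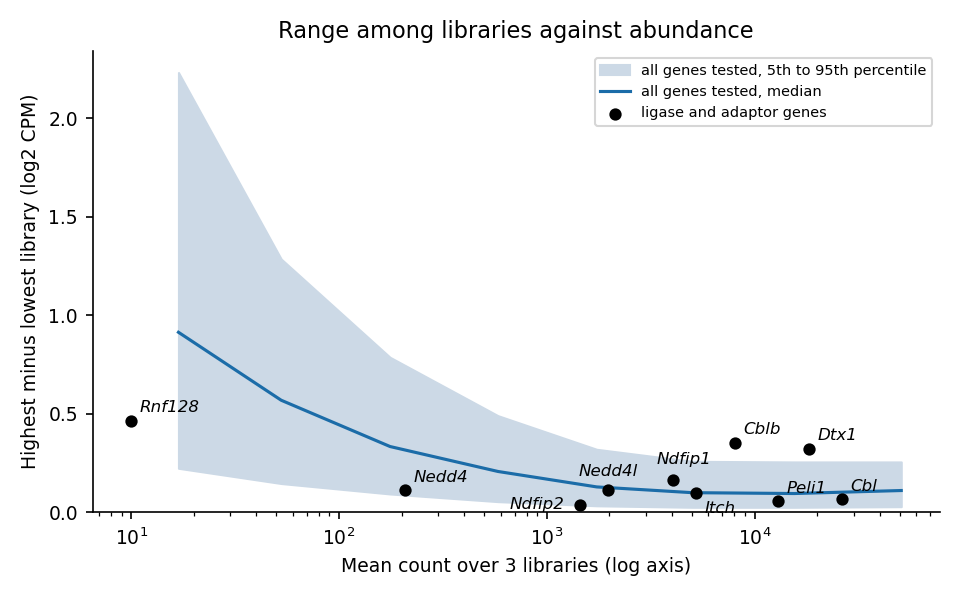
Range among the 3 libraries in log2 CPM against the mean count on a log axis, with all genes tested as a median line and a band from the 5th to the 95th percentile in bins of count. Cblb (0.35) and Dtx1 (0.32) lie above the band, Itch (0.10) lies near the median line, and Rnf128 is at the low end of the counts.

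Genes whose products work with these ligases nearly all reached 1 TPM throughout, against 46.1% of protein-coding genes. The lists here and below hold known genes chosen with earlier results of these data known, so their counts are descriptions only. The 9 genes of CBL partners all reached 1 TPM throughout, and their median was 94.7 TPM. Grb2, which links CBL to receptors, stood at 195 ± 6.18 TPM, Ubash3a, a CBL-binding phosphatase relative that dampens receptor signals, at 169 ± 8.03 TPM, and Sh3kbp1, the CIN85 adaptor of receptor uptake, at 147 ± 1.57 TPM. Ubash3b was the lowest at 21.9 ± 2.42 TPM.

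All 7 ubiquitin-conjugating enzyme genes passed, with Ube2d2a at 82.7 ± 5.09 TPM and Ube2l3, an enzyme that serves HECT ligases, at 41.8 ± 1.49 TPM. Ube2v1 was the lowest at 3.94 ± 0.301 TPM. Of 8 deubiquitinase genes 7 passed, led by Usp7 at 157 ± 1.84 TPM. Otub1, which is known to bind GRAIL, stood at 90.3 ± 0.987 TPM. Otub2 missed 1 TPM in replicate 2 alone, at 0.9865 TPM. All 18 other ligase genes passed, with a median of 73.0 TPM, from Rc3h2, a Roquin gene, at 13.3 ± 0.982 TPM to Rbck1, a subunit of the linear ubiquitin ligase, at 270.3 ± 5.85 TPM.

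Reported targets of these ligases were also present. All 11 passed 1 TPM, with a median of 256 TPM, led by the receptor kinase gene Zap70 at 420.5 ± 8.94 TPM. Plcg1 stood at 319 ± 4.41 TPM and Prkcq at 256 ± 1.47 TPM, while Rel, the gene of c-Rel, was the lowest at 33.1 ± 1.28 TPM. Jun and Junb, whose proteins Itch marks, were the only 2 that varied among libraries. Jun had 51.7, 42.8 and 143 TPM in replicates 2, 3 and 4 (edgeR goodness of fit, adjusted p = 3.72e-30) and Junb had 277, 283 and 423 TPM (adjusted p = 0.00533), both highest in replicate 4, and both calls were lost without replicate 4 (edgeR, adjusted p = 1.0 each). Itch was lowest in that library at 39.9 TPM, but so were Cbl, Cblb, Ndfip1, Ndfip2 and Peli1. Any link between these RNA values was not tested.

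All 9 genes tied to anergy passed 1 TPM, and 0 varied by edgeR's goodness of fit at either the adjusted or the unadjusted p of 0.05. Dgka, a diacylglycerol kinase gene, was the highest at 1698 ± 66.2 TPM. The EGR genes known to induce Cblb stood at 61.7 ± 2.88 TPM for Egr3 and 21.2 ± 1.37 TPM for Egr2, and the NFAT genes at 114 ± 2.19 TPM for Nfatc1 and 63.1 ± 5.80 TPM for Nfatc2.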

How the data were processed

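The values deposited for each of the 3 libraries are raw counts. They come from featureCounts 1.4.6-p4, per the file headers, run by the authors on pairs with both ends aligned, with reverse strand counting over the exons of GENCODE M13 (mm10). The aligner's version is not given in the sources used here. No option for reads aligned to several places was set, so pairs shared by near-identical copies were not counted. The deposited exon length of each gene is in bases, a unit of its own.

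TPM were computed here from counts and that length, which merges the exons of all transcripts, so unused exons lower a gene's TPM. Symbols were matched by Ensembl identifier (50376 of 50600 genes). Genes on the same strand within Cbl, Nedd4 and Peli1 held at most 11 counts each. Variation among libraries was assessed in R 4.3.3 by edgeR 4.0.16 (goodness of fit of an intercept-only model, TMM, trended dispersion, mean count of 10 or more, Benjamini-Hochberg at 0.05), checked on simulated counts. No pair of libraries agreed within sampling noise (chi-square per degree of freedom of 9.1 or more). Contrasts used log2(TPM + 0.1) and exact sign-flip tests. The members and lists were chosen with earlier results of these data known, and promoter motifs and the coding transcript length after values were seen. The genes named were all 10 members, their paralogs, the highest and lowest of each list and list genes that varied; others named were chosen after their values were seen, and 1 gene that this rule names is not reported here. RefSeq promoters (GRCm38.p6) were kept for 7 of 10 genes, with entries on chromosome 18, where Ndfip1 and Nedd4l lie, left out. Alternatives were other scaling, dispersion, count minimums, thresholds, pseudocounts and lengths, and each replicate left out. Figures were drawn with matplotlib 3.10.9, and other steps ran in Python 3.11.15 with pandas 2.3.3, scipy 1.17.1 and numpy 2.4.6.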

Additional observations from a re-analysis of the deposited data

How the results depend on the processing

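The count of 9 genes at 1 TPM or more was 9 at 0.5 TPM and with any 1 replicate left out, and 8 at 5 TPM. None of the 10 genes was called by edgeR under any scaling, dispersion or count minimum tried, or with any 1 replicate left out, where Rnf128 could not be tested at a minimum count of 50 or without replicate 2 or 3. Over all genes 72 genes varied, against 35 when replicate 2 was left out, 39 when it was replicate 3, 46 when it was replicate 4, and 312 with 1 dispersion for all genes. Of the contrasts and neighbours, signs were kept with a pseudocount of 1 TPM and with any 1 replicate left out. In CPM, which ignores length, Ndfip1 over Itch became -0.37, Ndfip1 over Dtx1 -2.21 and Dtx1 over Cbl -0.51. With the exon bases of the longest coding transcript, an alternative chosen after seeing the data, Ndfip1 over Dtx1 became -0.0900, Cbl over Peli1 -0.59 and Nedd4l over Ndfip2 -1.16. That is the construction of these scales, which change the length of each gene alone. Levels were 1.035-fold higher without genes under 200 bases and 1.08-fold higher over protein-coding genes only. No paired analysis was possible because there is a single group. Depth limits Rnf128, with 30 counts in all.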
